A study of Homo sapiens with 6 samples.

Results

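The genes described here encode the amino acid carriers of the plasma membrane and lysosome, with their nearest relatives for peptides and monocarboxylates, in human colon cancer cells that were either resistant or sensitive to methotrexate (MTX). They were chosen by symbol alone, as every gene of the solute carrier families SLC1, SLC3, SLC6, SLC7, SLC15, SLC16, SLC36, SLC38 and SLC43. The array annotation listed 67 of them among 19775 genes with a single symbol. Of these, 40 were bright enough to be tested, among 11849 genes tested in all.

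The study compared Caco2 cells, a human colon adenocarcinoma line, after selection for growth in 10 µM MTX with the parental, MTX-sensitive Caco2 cells. MTX is an antifolate, and the methods describe resistance as gained over stepwise increases of the drug. Total RNA from 3 samples of MTX-resistant Caco2 cells and 3 samples of parental Caco2 cells was hybridised to 6 Affymetrix Human Genome U133 Plus 2.0 arrays. Parental cells grew in Ham's F12 medium with whole serum, while resistant cells were kept in dialyzed serum and a selective medium free of glycine, hypoxanthine and thymidine, so the drug, the resistance and the medium cannot be told apart in these arrays. The resistant cells are a single selected line, and whether the 3 samples of each group were grown apart is not stated, so the p-values reflect the spread among these samples alone, which could be technical.

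Amino acids cross membranes through carriers that each take a class of substrates. SLC7A1 brings in arginine and lysine, SLC1A5, SLC38A1 and SLC38A2 bring in small neutral amino acids with sodium, and SLC7A5 exchanges glutamine for leucine and other large neutral amino acids only when bound to the glycoprotein SLC3A2. When amino acids run short, uncharged tRNA activates the kinase GCN2, the transcription factor ATF4 accumulates, and ATF4 raises many carriers together with enzymes such as asparagine synthetase. In the intestine, carriers of these families absorb the amino acids and small peptides of the diet.

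Each gene stands here as 1 probe set (a set of short probes for a transcript), the one with the highest mean signal over the 6 arrays. Its level is given as the signal divided by the median signal of the same array, so a level of 1 is the array median, and levels of different genes cannot be set against each other because each probe set binds with its own strength. The array medians were between 10.6 and 11.5 in resistant cells and between 11.1 and 12.8 in parental cells. Correlations over all tested probe sets were 0.968 to 0.971 among the resistant arrays and 0.966 between parental arrays 1 and 2, while parental array 3 had correlations of 0.949 and 0.946 with parental arrays 1 and 2. Parental array 3 correlated with the resistant arrays at 0.935 to 0.939, and parental arrays 1 and 2 at 0.914 to 0.929. Parental array 3 is therefore shown apart from the other parental arrays at each carrier, and the main results are given with and without it. The ratio of 3' to 5' signal, a sign of RNA integrity, ranged over 0.904 to 0.987 on GAPDH probes and 1.09 to 1.19 on ACTB probes across the 6 arrays.

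In the limma fit of all 6 arrays, 7 of the 40 tested carriers passed an adjusted p of 0.05, which is 17.5% of them, against 12.4% of all tested genes. SLC36A4, SLC38A11, SLC6A6, SLC16A7, SLC3A1 and SLC1A1 rose in resistant cells, and SLC7A1 fell. In the background 7.37% of tested genes rose and 5.05% fell. Of the 7 carriers, 3 rose and 1 fell by at least 2-fold, where 3.37% of all genes rose and 2.17% fell by that much. For 6 of the 40 carriers (SLC38A11, SLC6A9, SLC6A11, SLC6A13, SLC6A14 and SLC6A16) the mean of 1 group was below the array median, so they were tested only because the other group was higher, and their counts support nothing. Among the other 34 carriers 6 passed the test. The median log2 change of the 40 carriers was 0.10, against 0.02 for all tested genes. The groups did not overlap for 17 of the 40 carriers (42.5%), with resistant arrays above in 13 and below in 4, against 35.5% of all genes. The plot of levels by array and the plot of changes show each tested carrier.

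**Figure D1:**
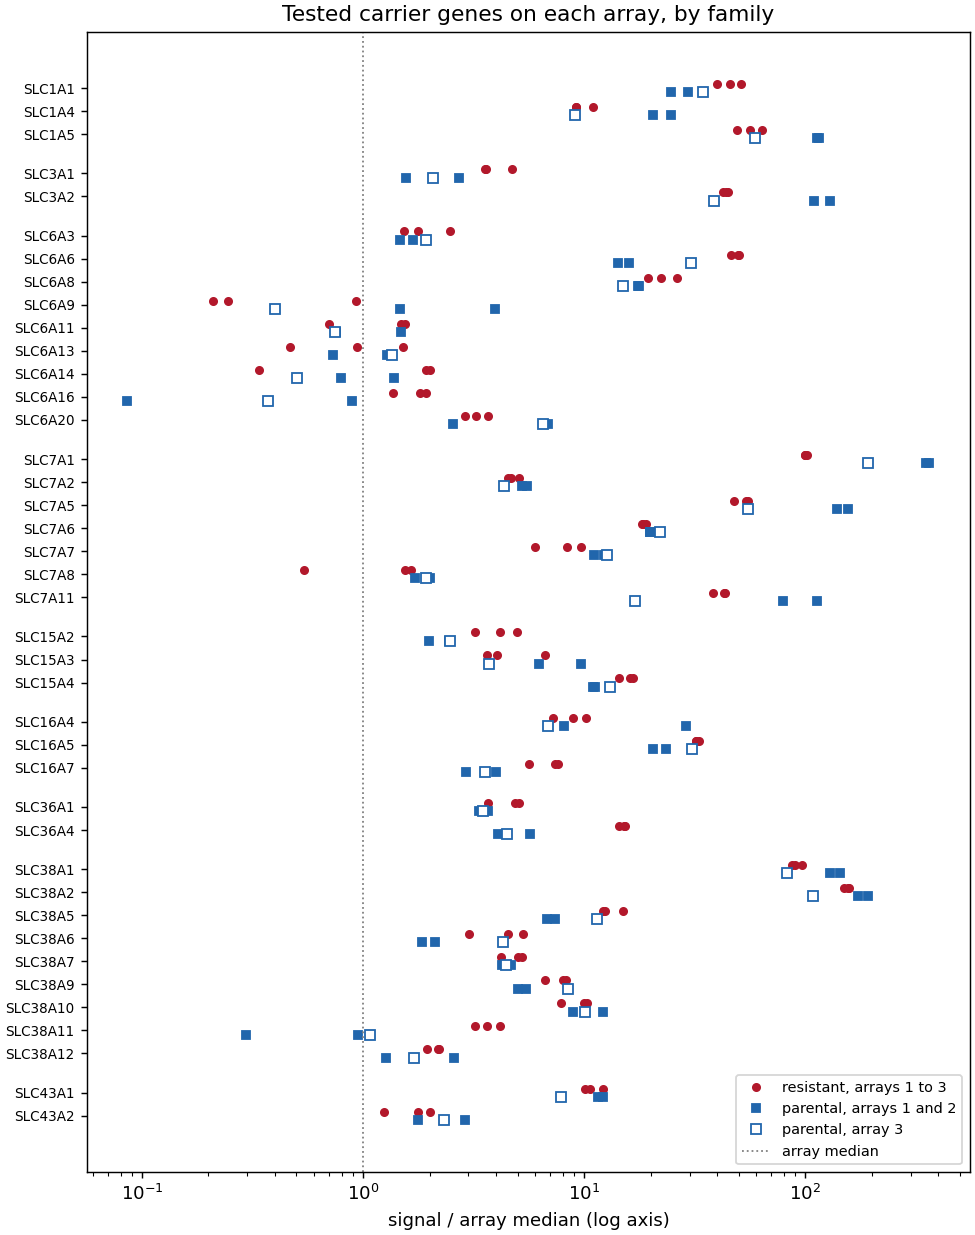
Level of the 40 tested carriers on each array, as signal divided by the array median on a log axis, by family. Red circles are the 3 resistant arrays, filled blue squares parental arrays 1 and 2, and open squares parental array 3. SLC7A1 and SLC36A4 have the 2 groups far apart. For SLC3A2 and SLC7A11 the open square lies below the red circles, and for SLC7A5 it lies among them.

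SLC7A1 (probe set 212295_s_at, chromosome 13), the main carrier for cationic amino acids in most cells and also known as CAT-1, was the only tested carrier that fell. Its level was 99.5, 99.6 and 102 in the resistant arrays, against 353, 365 and 193 in parental arrays 1, 2 and 3. The resistant arrays were nearly equal and all below every parental array, and parental array 3 lay between the resistant arrays and the other parental arrays. SLC7A1 averaged 100.3 ± 1.35 in resistant cells and 304 ± 96.3 in parental cells (SD, n = 3 each), a log2 change of -1.54 ± 0.21 (SE, adjusted p = 0.00211). All 5 of its tested probe sets fell, by -1.54 to -2.84 on the log2 scale. On the second of these, 212290_at, the level was 10.4, 8.92 and 9.51 in resistant cells, against 48.9, 59.1 and 20.5 in parental cells. Among the alternatives run, the call was lost only under a test that took the spread of each probe set on its own. Among its 10 nearest tested neighbours on chromosome 13, 4 fell (PAN3, POMP, UBL3 and USPL1) and none rose, where 5.05% of all tested genes fell and 7.37% rose. The median log2 change of these 10 neighbours was -0.29.

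The other tested carriers of cationic amino acids did not pass the test. SLC7A2, which carries arginine, had levels of 5.08, 4.52 and 4.65 in resistant cells, against 5.26, 5.53 and 4.36 in parental cells. These groups overlapped, and the log2 change was -0.08 ± 0.18 (SE, adjusted p = 0.798). SLC7A7 and SLC7A6 are the light chains that export cationic amino acids in exchange for neutral ones, each bound to SLC3A2. SLC7A7 had levels of 9.68, 5.99 and 8.38 in resistant cells, against 11.1, 12.3 and 12.6 in parental cells, so every resistant array was below every parental array (log2 change -0.61 ± 0.20, adjusted p = 0.0774). SLC7A6 had levels of 18.4, 18.3 and 19.1 in resistant cells, against 19.8, 19.8 and 22.1 in parental cells. The SLC7A6 groups did not overlap either, but the difference was small (log2 change -0.14 ± 0.13, adjusted p = 0.532) and its other 2 tested probe sets overlapped between groups.

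SLC3A2, known as 4F2hc or CD98, is the heavy chain that takes the light chains of the SLC7 family to the plasma membrane. Its level was 42.3, 44.8 and 43.9 in resistant cells, against 130, 110 and 38.7 in parental cells. Parental arrays 1 and 2 were far above the resistant arrays, and parental array 3 was below all of them. With all 6 arrays the log2 change was -0.91 ± 0.36 (SE, adjusted p = 0.140), and without parental array 3 it was -1.45 with an adjusted p of 7.09e-06. SLC7A5, or LAT1, the light chain for leucine, phenylalanine and tryptophan, had levels of 47.9, 55.2 and 54.0 in resistant cells, against 139, 156 and 54.9 in parental cells. For SLC7A5, parental arrays 1 and 2 were high and parental array 3 lay within the range of the resistant arrays. The log2 change of SLC7A5 was -1.02 ± 0.32 (SE, adjusted p = 0.0735) with all arrays and -1.49 (adjusted p = 4.87e-06) without parental array 3. SLC7A11, or xCT, the light chain that imports cystine in exchange for glutamate, had levels of 43.4, 38.4 and 42.96 in resistant cells, against 79.5, 113 and 16.9 in parental cells. Here the parental arrays spanned the resistant ones on both sides. The log2 change of SLC7A11 was -0.36 ± 0.55 (SE, adjusted p = 0.708) with all arrays and -1.19 (adjusted p = 0.000173) without parental array 3, and on its other 2 tested probe sets the resistant arrays likewise lay between parental array 3 and the other parental arrays. SLC7A8, or LAT2, which carries neutral amino acids across the basolateral side of the intestine, was dim, with levels of 0.541, 1.65 and 1.56 in resistant cells, against 1.71, 2.00 and 1.93 in parental cells. Its resistant arrays were all below the parental ones, and it did not pass the test (log2 change -0.75 ± 0.45, adjusted p = 0.312). All 7 tested SLC7 genes had a log2 change below 0, with a median of -0.61. Of all 11849 tested genes 6104 had a log2 change above 0, with a median of 0.02. Of the 7 genes 1 passed the test as lower, where 5.05% of all tested genes did.

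Several sodium-coupled carriers for small neutral amino acids had a similar order of arrays. SLC1A5, or ASCT2, an exchanger of glutamine, serine and alanine, had levels of 49.3, 56.1 and 63.9 in resistant cells, against 115, 114 and 59.7 in parental cells. Parental array 3 fell among the resistant arrays, and the log2 change was -0.72 ± 0.23 (SE, adjusted p = 0.0822) with all arrays and -1.03 (adjusted p = 0.000133) without it. SLC1A4, or ASCT1, which exchanges serine, alanine and cysteine, had levels of 9.22, 9.24 and 11.0 in resistant cells, against 24.7, 20.6 and 9.07 in parental cells. Its parental array 3 was narrowly below all resistant arrays, and the log2 change was -0.77 ± 0.32 (SE, adjusted p = 0.155) with all arrays and -1.20 (adjusted p = 0.000232) without it. The 4 tested probe sets of SLC1A4 gave log2 changes between -0.77 and -0.04 with all arrays, and none passed the test. SLC38A1, or SNAT1, a sodium-coupled carrier of glutamine and alanine, had levels of 90.1, 97.2 and 86.9 in resistant cells, against 130, 144 and 83.0 in parental cells. The log2 change of SLC38A1 was -0.34 ± 0.19 (SE, adjusted p = 0.266) with all arrays and -0.59 (adjusted p = 0.00134) without parental array 3. SLC38A2, or SNAT2, which carries the same amino acids and glycine, had levels of 151, 158 and 157 in resistant cells, against 173, 193 and 108 in parental cells. The parental arrays lay on both sides of the resistant ones, and SLC38A2 passed the test neither with all arrays (log2 change 0.02 ± 0.19, adjusted p = 0.964) nor without parental array 3 (-0.23, adjusted p = 0.0752). Its brightest probe set is of a kind that may also bind other transcripts, and its direction turned under 4 alternatives given in the closing section.

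SLC6A9, or GlyT1, a glycine carrier, was dim, with levels of 0.928, 0.245 and 0.209 in resistant cells, against 3.94, 1.47 and 0.398 in parental cells. The groups overlapped through parental array 3. SLC6A9 was tested only through its parental arrays, and its fitted log2 change has no fixed size against resistant signals below the array median. The fit gave -1.87 ± 0.93 (SE, adjusted p = 0.230) with all arrays and -2.73 (adjusted p = 0.0299) without parental array 3.

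The fit without parental array 3, which rests on 2 parental arrays, called 13 of the 40 carriers higher and 8 lower in resistant cells, against 16.9% and 15.3% of all tested genes. Between 1 and 2 carriers were lower when any other single array was left out. The 8 lower ones were SLC7A1, SLC3A2, SLC7A5, SLC7A11, SLC1A4, SLC1A5, SLC38A1 and SLC6A9. Without the 6 carriers that were tested through 1 group only, 11 were higher and 7 lower of 34. For 7 of the 8 lower carriers, all but SLC7A1, parental array 3 was at or below the highest resistant array, and for 4 it was below all 3 resistant arrays. These 7 were called lower only with parental array 3 left out, so a low level on that array was largely set by the choice. How often this held among all tested genes was not counted. The 13 higher ones were SLC15A2, SLC15A4, SLC16A5, SLC16A7, SLC1A1, SLC36A4, SLC38A11, SLC38A5, SLC38A6, SLC38A9, SLC3A1, SLC6A16 and SLC6A6. For 11 of these 13 every resistant array was above every parental array, array 3 included. The 13 were picked as higher than parental arrays 1 and 2, so separation from those arrays was largely set by the choice. No such share was counted over all tested genes. SLC38A11 and SLC6A16, which are among the 11, were tested only through their resistant arrays. All 7 carriers called with 6 arrays were called again. Parental array 3 was at least 2-fold below the mean log2 level of parental arrays 1 and 2 for 8 of the 40 carriers (20.0%), where 4.67% of all tested genes were, and at least 2-fold above it for 3 (7.5%), where 2.98% were. Parental array 3 and all 3 resistant arrays were below both other parental arrays for 10 of the 40 carriers, a share close to the 21.9% of all tested genes. These shares turn on a single array and have no test.

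**Figure D2:**
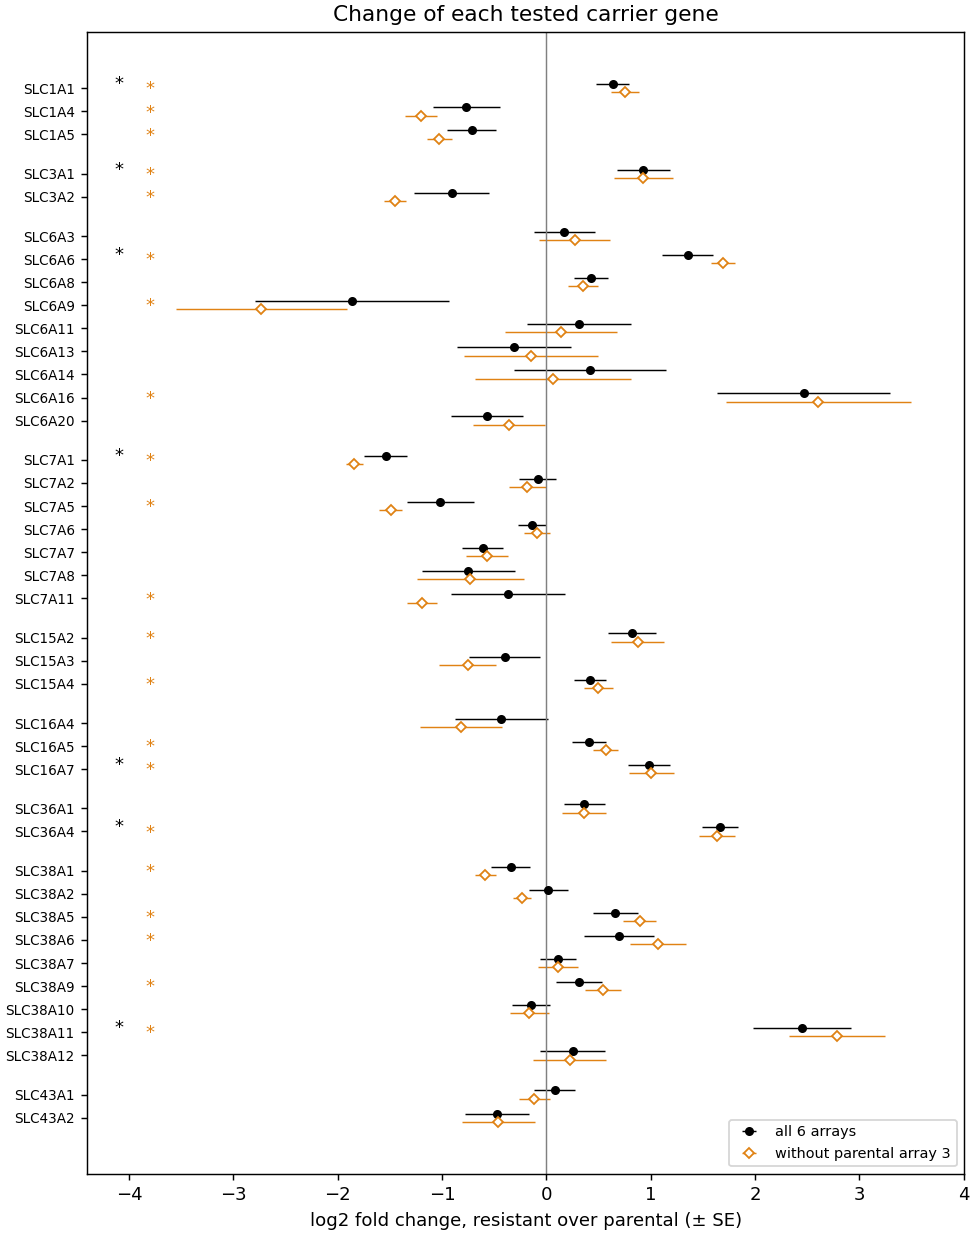
Log2 change of each tested carrier, resistant over parental, with its standard error, from all 6 arrays (black circles) and without parental array 3 (orange diamonds). Stars at the left mark an adjusted p below 0.05 in the fit of the same colour; 7 carriers have a black star and 21 an orange one.

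Genes that cells raise when amino acids are short were then examined on the same arrays. In a list of 13 tested amino acid response genes, 1 fell and none rose with all 6 arrays, with a median log2 change of -0.81. Of all tested genes 5.05% fell and 7.37% rose, with a median of 0.02. DDIT4, an inhibitor of mTORC1 that is induced by stress, was the one that fell, with levels of 17.4, 15.9 and 27.9 in resistant cells, against 101, 97.6 and 30.5 in parental cells (log2 change -1.76, adjusted p = 0.0264). Without parental array 3, 10 of the 13 fell and none rose, with a median of -1.35, where 15.3% of all tested genes fell and 16.9% rose. ASNS, asparagine synthetase, had levels of 53.6, 63.8 and 59.2 in resistant cells, against 216, 215 and 37.6 in parental cells. TRIB3, a pseudokinase induced through ATF4, had levels of 38.9, 43.1 and 47.8 in resistant cells, against 203, 224 and 37.2 in parental cells. Both had parental array 3 below every resistant array, and neither passed the test with all 6 arrays (adjusted p = 0.252 for ASNS and 0.116 for TRIB3). ATF4 itself had levels of 171, 180 and 181 in resistant cells, against 278, 268 and 141 in parental cells (log2 change -0.31, adjusted p = 0.409, and -0.63 without parental array 3, adjusted p = 0.000278). ATF3, a factor induced by several stresses, had every resistant array above every parental array, with levels of 14.0, 15.3 and 14.9 in resistant cells, against 12.8, 8.52 and 8.27 in parental cells (log2 change 0.61, adjusted p = 0.0735). Parental array 3 was at least 2-fold below the mean log2 level of the other parental arrays for 9 of the 13 genes, where 4.67% of all tested genes were. Parental array 3 and all 3 resistant arrays were below both other parental arrays for 10 of the 13, where 21.9% of all tested genes were. These shares turn on a single array and have no test. What made that array differ was not tested.

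**Figure D3:**
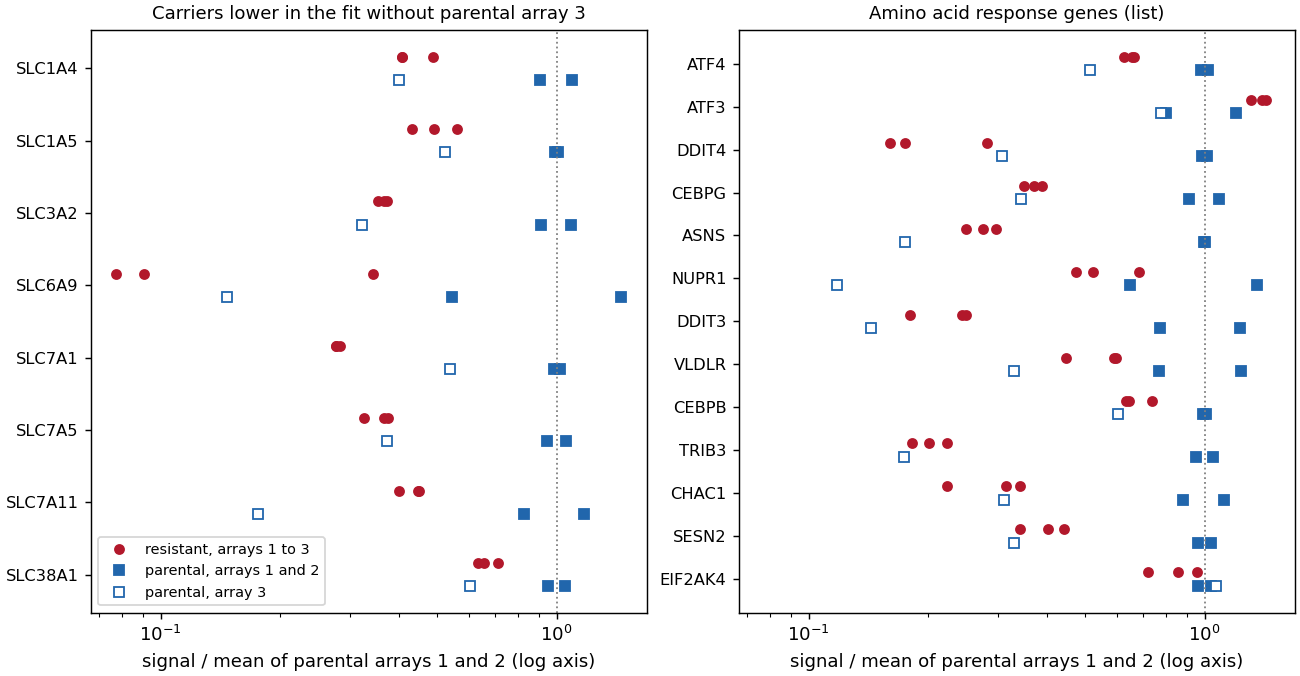
Signal of the 8 carriers that were lower in the fit without parental array 3 (left) and of the 13 tested amino acid response genes (right), on each array, divided by the mean of parental arrays 1 and 2 on a log axis. Red circles are resistant arrays, filled squares parental arrays 1 and 2, and open squares parental array 3; for SLC3A2, SLC1A4, SLC7A11, ASNS and TRIB3 the open square lies below every red circle.

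ATF4 binds a composite DNA element whose core can be written TGATGNAA. The promoter windows of RefSeq (build GRCh38.p14, 250 bases before to 50 bases after each annotated start) held this core on either strand in 3.62% of 35116 promoters. Of the 40 tested carriers 33 had a promoter in that table. The core was in 5 of their 53 promoters, and those 5 belonged to 5 different genes. All 5 were among the 8 carriers lower without parental array 3, of which 7 had a promoter (5 of 13 promoters), and the core was in none of the 14 promoters of the 10 higher carriers that had one. A second core, TGACNNNGC, bound by the oxidative stress factor NRF2, was in 13.3% of all promoters, 13.2% of those of tested carriers, 4 of the 13 and 1 of the 14. These are matches of letters and not measured binding sites, several carriers have more than 1 annotated start, and the lower and higher carriers were taken from these arrays. The matching stretches are shown because they sit in the carriers whose levels divide the parental arrays. Each is 30 bases, 5′ to 3′ on the strand of the gene, with the 8 bases of the core in capitals.
SLC7A1, chr13:29595663-29595692, minus strand: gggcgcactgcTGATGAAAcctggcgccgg
SLC3A2, chr11:62881719-62881748, plus strand: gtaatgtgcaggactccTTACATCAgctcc
SLC1A4, chr2:64989381-64989410, plus strand: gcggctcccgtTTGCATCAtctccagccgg
SLC1A5, chr19:46784893-46784922, minus strand: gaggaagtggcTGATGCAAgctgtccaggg
SLC38A1, chr12:46266502-46266531, minus strand: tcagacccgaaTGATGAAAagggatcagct
With the first transcribed base counted as 1, the core lies at 8 to 15 in SLC7A1 and at 38 to 45 in SLC3A2. It spans the start in SLC1A4 and SLC38A1, and in SLC1A5 it begins 97 bases before 1 of the annotated starts. It reads in the direction of the gene in SLC7A1, SLC1A5 and SLC38A1 and on the opposite strand in SLC3A2 and SLC1A4.

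SLC36A4 (234978_at, chromosome 11), a carrier of proline and tryptophan related to the proton-coupled carriers of the lysosome, had the smallest adjusted p of the tested carriers. Its level was 15.3, 15.2 and 14.4 in resistant cells, against 5.71, 4.08 and 4.47 in parental cells. The groups were far apart and parental array 3 lay within the range of the other parental arrays. SLC36A4 averaged 14.95 ± 0.519 in resistant cells and 4.75 ± 0.853 in parental cells (SD, n = 3 each), a log2 change of 1.67 ± 0.17 (SE, adjusted p = 0.000441). Its other tested probe set, 230874_at, rose by 1.78 (adjusted p = 0.0297). Among the 10 nearest tested genes CTSC and MED17 rose and none fell, where 7.37% of all tested genes rose and 5.05% fell. SLC36A1, or PAT1, which carries glycine, proline and alanine with protons, had levels of 5.10, 3.69 and 4.88 in resistant cells, against 3.67, 3.36 and 3.50 in parental cells. The SLC36A1 groups did not overlap by a narrow margin, and the change did not pass the test (log2 change 0.36 ± 0.20, adjusted p = 0.263).

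SLC38A11 (243231_at, chromosome 2), a little-studied member of the family of sodium-coupled neutral carriers, had levels of 4.18, 3.22 and 3.63 in resistant cells, against 0.946, 0.297 and 1.07 in parental cells. Every resistant array was above every parental array, and the parental signals were near or below the array median, where the background of the array is a large part of the signal. SLC38A11 was tested only through its resistant arrays. Its fitted log2 change, 2.45 ± 0.47 (SE, adjusted p = 0.0117), has no fixed size against such low signals and was 1.77 with an offset of 0.5 added before the logarithm. A single probe set represents the gene. Of the 10 nearest tested genes DPP4 and GRB14 rose and none fell, where 7.37% of all tested genes rose and 5.05% fell. SLC38A5, or SNAT5, which carries glutamine, asparagine and glycine, had levels of 12.1, 12.5 and 14.97 in resistant cells, against 6.79, 7.37 and 11.5 in parental cells. The resistant arrays were all higher, with parental array 3 close beneath them, and the change did not pass the test with all arrays (log2 change 0.66 ± 0.21, adjusted p = 0.0778). SLC38A9, the lysosomal arginine sensor of mTORC1, had levels of 8.01, 6.69 and 8.25 in resistant cells, against 5.0, 5.48 and 8.43 in parental cells, so parental array 3 was above all resistant arrays (log2 change 0.31 ± 0.22, adjusted p = 0.392). Of the other tested SLC38 genes, SLC38A6, SLC38A7, SLC38A10 and SLC38A12 had overlapping groups and did not pass the test. The 9 tested SLC38 genes had a median log2 change of 0.25.

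SLC6A6 (228754_at, chromosome 3), the sodium- and chloride-coupled carrier of taurine, had levels of 49.98, 49.5 and 46.5 in resistant cells, against 15.9, 14.3 and 30.4 in parental cells. All resistant arrays were above all parental arrays, and parental array 3 was about midway. SLC6A6 averaged 48.6 ± 1.92 in resistant cells and 20.2 ± 8.87 in parental cells (SD, n = 3 each), a log2 change of 1.35 ± 0.25 (SE, adjusted p = 0.00939). Its other 2 tested probe sets gave 0.97 (adjusted p = 0.0667) and 0.55 (adjusted p = 0.405). SLC6A8, the creatine carrier, had levels of 19.4, 22.3 and 26.2 in resistant cells, against 17.6, 17.6 and 15.01 in parental cells. Its groups did not overlap on this probe set, but 2 further probe sets, which may also bind copies of the gene, gave log2 changes of 0.01 and -0.01, and the brightest one did not pass the test (0.43 ± 0.16, adjusted p = 0.117). SLC6A20, or SIT1, the intestinal carrier of proline, had levels of 3.26, 2.90 and 3.69 in resistant cells, against 6.87, 2.56 and 6.50 in parental cells. Parental array 2 was the lowest of all 6 for SLC6A20, and the log2 change was -0.57 ± 0.34 (SE, adjusted p = 0.317), or -1.03 (adjusted p = 0.0220) without that array. SLC6A14, a carrier of neutral and cationic amino acids, was near the array median, with levels of 1.94, 0.340 and 2.02 in resistant cells, against 1.39, 0.797 and 0.504 in parental cells, and the groups overlapped (adjusted p = 0.752). SLC6A16, an orphan member of the family, was dim as well, with levels of 1.94, 1.81 and 1.37 in resistant cells, against 0.892, 0.0859 and 0.372 in parental cells. The SLC6A16 groups did not overlap, and its log2 change of 2.46 ± 0.83 rests on parental signals below the array median (adjusted p = 0.0890). SLC6A3, SLC6A11 and SLC6A13, carriers of dopamine and of GABA, had overlapping groups. The 9 tested SLC6 genes had a median log2 change of 0.31.

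SLC1A1 (213664_at, chromosome 9), known as EAAC1, the carrier of glutamate and aspartate in epithelia, had levels of 45.9, 40.1 and 51.1 in resistant cells, against 24.7, 29.5 and 34.6 in parental cells. The lowest resistant array was above the highest parental array. SLC1A1 averaged 45.7 ± 5.52 in resistant cells and 29.6 ± 4.91 in parental cells (SD, n = 3 each), a log2 change of 0.63 ± 0.16 (SE, adjusted p = 0.0353), and its second tested probe set gave 0.40 (adjusted p = 0.164). The call was lost in 9 of 17 alternatives. Although SLC1A1 rose, 9 of its 10 nearest tested neighbours had a log2 change below 0 (median -0.39). Of all 11849 tested genes 6104 had a log2 change above 0 (median 0.02). Among the 10 neighbours of SLC1A1, 2 fell and none rose. Of the 10 nearest neighbours of each, none rose or fell for SLC3A1, 2 rose for SLC16A7 and 1 rose for SLC6A6. Of all tested genes 7.37% rose and 5.05% fell. SLC3A1 (205799_s_at, chromosome 2), known as rBAT, is the heavy chain that pairs with SLC7A9 to absorb cystine and cationic amino acids in the intestine and kidney. It had levels of 3.56, 3.60 and 4.74 in resistant cells, against 2.71, 1.57 and 2.07 in parental cells. The resistant arrays were all higher, and SLC3A1 passed the test narrowly (log2 change 0.93 ± 0.26, adjusted p = 0.0483), with the call lost in 10 of 16 alternatives. SLC7A9, its light chain, was not tested, with levels of 0.883, 0.0566 and 1.17 in resistant cells, against 0.829, 0.555 and 0.602 in parental cells. The SLC7A9 signals were at or near the array median or below it in both groups, and overlapped.

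**Figure D4:**
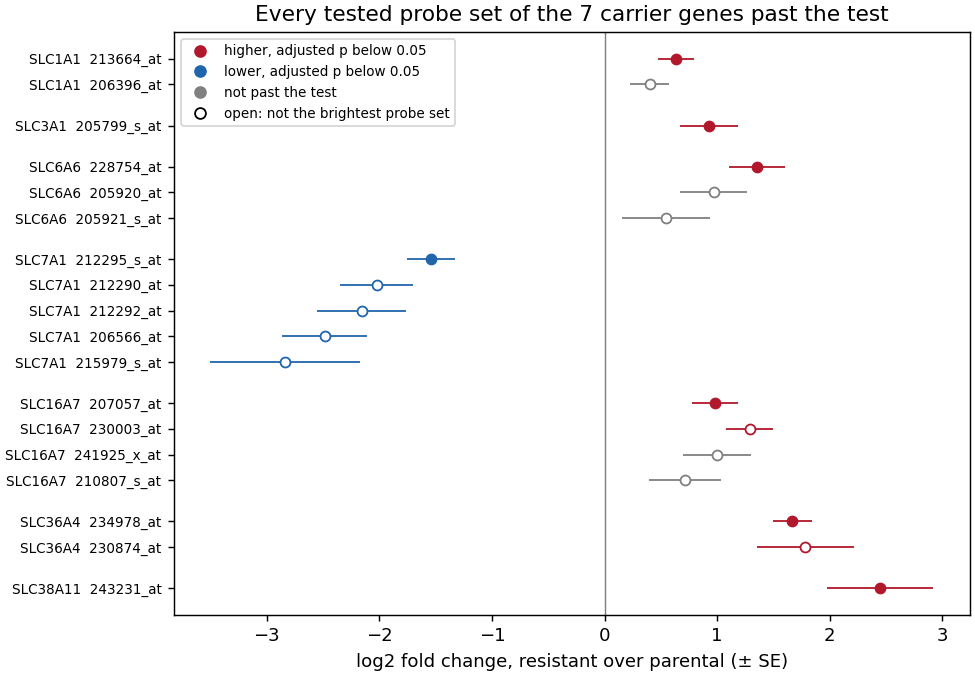
Log2 change, resistant over parental, with its standard error, for every tested probe set of the 7 carriers that passed the test with 6 arrays. Filled circles are the brightest probe set of each gene and open circles the others, coloured by whether they passed; all 5 SLC7A1 probe sets lie below 0 and every other probe set above 0.

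SLC16A7 (207057_at, chromosome 12), or MCT2, a proton-coupled carrier of pyruvate and lactate, had levels of 7.65, 7.42 and 5.61 in resistant cells, against 2.91, 3.98 and 3.58 in parental cells. The groups did not overlap, and parental array 3 lay between the other parental arrays. SLC16A7 averaged 6.89 ± 1.12 in resistant cells and 3.49 ± 0.539 in parental cells (SD, n = 3 each), a log2 change of 0.98 ± 0.20 (SE, adjusted p = 0.0164). Of its 4 tested probe sets 2 rose, and the 4 log2 changes were between 0.71 and 1.29. SLC16A5, a relative of the monocarboxylate carriers, had levels of 33.1, 32.2 and 32.1 in resistant cells, against 20.6, 23.4 and 30.7 in parental cells. Every resistant array was higher, with parental array 3 close to them, and the change did not pass the test (log2 change 0.40 ± 0.16, adjusted p = 0.143), while 1 of its 3 tested probe sets, 213590_at, rose by 0.64 (adjusted p = 0.0463). SLC16A4, another relative, had levels of 7.25, 8.91 and 10.2 in resistant cells, against 8.14, 28.8 and 6.89 in parental cells, and its difference rested on parental array 2 (log2 change -0.43 ± 0.45, adjusted p = 0.573, and 0.22 without that array). SLC16A1 and SLC16A3, the widespread lactate carriers, were not analysed here.

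None of the peptide carriers passed the test with 6 arrays. SLC15A2, or PEPT2, a proton-coupled carrier of di- and tripeptides, came closest, with levels of 4.15, 3.23 and 4.98 in resistant cells, against 2.46, 1.99 and 2.48 in parental cells. Its groups did not overlap (log2 change 0.82 ± 0.23, adjusted p = 0.0509), but its second tested probe set gave 0.11. SLC15A4, which carries histidine and peptides out of the lysosome, had levels of 14.4, 16.1 and 16.7 in resistant cells, against 11.0, 11.2 and 13.1 in parental cells (log2 change 0.42 ± 0.15, adjusted p = 0.108). Every resistant array was higher for SLC15A4 on both of its tested probe sets. SLC15A3, its lysosomal relative, had levels of 3.63, 4.06 and 6.66 in resistant cells, against 9.69, 6.26 and 3.73 in parental cells (log2 change -0.40 ± 0.34, adjusted p = 0.489). SLC15A1, or PEPT1, the peptide carrier of the small intestine, was not tested, with levels of 0.153, 0.472 and 0.887 in resistant cells, against 0.243, 0.805 and 0.743 in parental cells, all below the array median. SLC43A1 and SLC43A2, the carriers LAT3 and LAT4 of large neutral amino acids that work without a heavy chain, had overlapping groups. SLC43A1 had levels of 12.2, 10.2 and 10.6 in resistant cells, against 11.6, 12.2 and 7.85 in parental cells (log2 change 0.08 ± 0.20, adjusted p = 0.824). SLC43A2 had levels of 2.02, 1.77 and 1.24 in resistant cells, against 2.90, 1.77 and 2.32 in parental cells (log2 change -0.47 ± 0.30, adjusted p = 0.351).

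Since the medium of the resistant cells lacked glycine, the carriers known to accept glycine were also counted together. Of 8 on the array 5 were tested, namely SLC6A9, SLC6A14, SLC36A1, SLC38A2 and SLC38A5, and none rose or fell with 6 arrays, with a median log2 change of 0.36. At an unadjusted p below 0.05, 1 of the 5 carriers differed, where 3648 of all 11849 tested genes did. Without parental array 3 1 rose (SLC38A5) and 1 fell (SLC6A9), where 16.9% of all tested genes rose and 15.3% fell. SLC6A9 was tested only through its parental arrays, so its call supports nothing. The other 3 glycine carriers, SLC6A5, SLC38A4 and SLC7A10, had every level below the array median.

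The 27 carriers that were not tested had a mean signal below the array median. Of their 162 values, 13 were above the median, and 18 of the 27 genes were below it on all 6 arrays. The highest single value was 2.28, for SLC16A14 in parental array 1, whose other parental arrays were at 1.00 and 0.558 and whose resistant arrays were at 0.523, 0.236 and 0.930. SLC6A19, or B0AT1, the main carrier of neutral amino acids in the small intestine, was at 0.0991, 1.64 and 1.55 in resistant cells, against 0.577, 0.164 and 0.327 in parental cells. The resistant arrays of SLC6A19 spread more widely than the difference between the groups. Untested genes by family were 4 of 7 in SLC1, 9 of 18 in SLC6, 6 of 13 in SLC7, 1 of 4 in SLC15, 4 of 7 in SLC16, 2 of 11 in SLC38 and 1 of 3 in SLC43. In 3 of the 27, SLC43A3, SLC6A12 and SLC16A9, the groups did not overlap, where they did not for 35.5% of all tested genes. No such share was counted over all untested genes, so the 3 are not read further. SLC43A3, described as a purine nucleobase carrier, was at 1.29, 1.06 and 0.609 in resistant cells, against 0.604, 0.211 and 0.0796 in parental cells.

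The glycoprotein partners BSG and NPTN, which hold monocarboxylate carriers at the membrane, did not pass the test (log2 change 0.17, adjusted p = 0.411 for BSG, and -0.05, adjusted p = 0.810 for NPTN). Of 16 tested genes of the mTORC1 amino acid sensing machinery, none passed the test with 6 arrays, and their log2 changes were between -0.56 for RRAGC and 0.64 for NPRL2. Of the 16, 3 had an unadjusted p below 0.05, where 3648 of all 11849 tested genes did. Without parental array 3, 2 of the 16 rose and 3 fell, shares near the 16.9% and 15.3% of all tested genes. Of 13 tested enzymes of serine, glycine and proline synthesis, glycine cleavage and linked transamination, 3 rose and 1 fell with 6 arrays. Of all tested genes 7.37% rose and 5.05% fell. The median log2 change was 0.015 both for the 13 enzymes and for all tested genes. ALDH18A1, the first enzyme of proline synthesis, had levels of 76.3, 77.7 and 78.0 in resistant cells, against 39.0, 46.1 and 45.7 in parental cells (log2 change 0.83, adjusted p = 0.00282). GOT2, the mitochondrial aspartate aminotransferase, rose by 0.84 (adjusted p = 0.0425), and GLUL, glutamine synthetase, rose by 0.65 (adjusted p = 0.0105). PSPH, the last enzyme of serine synthesis, had levels of 17.0, 14.3 and 18.7 in resistant cells, against 38.6, 50.3 and 27.6 in parental cells (log2 change -1.18, adjusted p = 0.00887). PSAT1, the enzyme before it, had levels of 102, 107 and 117 in resistant cells, against 241, 262 and 76.8 in parental cells, so that parental array 3 lay below the resistant arrays as it did for SLC3A2. Without parental array 3, 5 of these 13 enzymes rose and 3 fell, where 16.9% and 15.3% of all tested genes did.

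Markers of the cells themselves differed between the groups too. Of 8 tested intestinal epithelium markers 5 rose (KRT20, VIL1, KRT8, KRT18 and LGALS4) and none fell, where 7.37% of all tested genes rose and 5.05% fell. The summed level of the 11 markers was 2470 to 2593 in resistant cells and 1522 to 2033 in parental cells. Since probe sets bind with different strengths, this sum is weighted to the brightest ones, such as KRT18, KRT8, KRT20 and EPCAM. The intestinal factors CDX1 and CDX2 had mean levels below the array median in both groups. Of 9 enterocyte markers only DPP4 was bright enough to test, and it rose by 1.75 (adjusted p = 9.76e-05), while FABP1, FABP2, SI, ALPI and ANPEP were below the array median on every array. Of 2 tested fibroblast markers 1 rose, LUM, with levels of 3.27, 2.92 and 1.504 in resistant cells, against 0.198, 0.352 and 0.265 in parental cells. LUM was tested only through its resistant arrays, so its call supports nothing. The other tested one, COL1A1, did not pass the test (log2 change -0.15, adjusted p = 0.633). COL1A2, COL3A1, DCN and PDGFRB had mean levels below the array median. No tested leukocyte (2) or endothelial (1) marker passed the test. In RNA from whole cultures, fewer expressing cells and less RNA per cell cannot be told apart, and the part of these markers in the carriers' changes was not tested.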

How the data were processed

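Total RNA of 3 MTX-resistant and 3 parental Caco2 samples was measured on 6 arrays. The deposited values are linear signal intensity values, 1 per probe set and array, and the submitters' processing notes name MAS5. The sources used here give neither a version nor a scaling target for it. Every column was mapped to a sample. Each intensity was divided by its array's median, as the authors did for theirs, exact zeros were set to 0.05, and log2 was taken. Of 54613 probe sets (62 controls removed) 26563 had a mean at or above 1 array median and were tested with limma 3.58.1 (R 4.3.3; intensity trend, two-sided, Benjamini-Hochberg over all tested probe sets). The exact permutation test of 3 against 3 arrays cannot go below 0.1. Gene symbols came from the platform annotation, updated through RefSeq: 41091 probe sets had 1 symbol, 1801 several and 11721 none, and 41037 matched RefSeq. Probe sets with several symbols were left out, among them 3 of SLC6A8 and its copies. RefSeq lists 12 further genes of these families that were not analysed here. Named genes were all carriers past the adjusted p, a fixed set of carriers known in the intestine or in proliferating cells, and the 4 brightest others; SLC38A5, SLC6A16, SLC7A2, SLC15A2, SLC15A3, SLC16A14, SLC43A3 and the pathway genes that did not pass were named after their values were seen. The members, lists and tests were chosen with earlier results of these data known. The script was checked on simulated data. No 2 arrays held identical values. Signals of dim probe sets are the least precise, and the number of arrays limits the precision throughout. Alternatives changed the scaling, the filter, the treatment of low signals, the variance model, the arrays and the probe set of a gene.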

Additional observations from a re-analysis of the deposited data

How the results depend on the processing

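Of the 7 carriers past the test, SLC36A4 and SLC7A1 lost it only under Welch's test of each probe set on its own, which is not the study's procedure, with log2 changes between 1.56 and 1.81 for SLC36A4 and between -2.21 and -1.38 for SLC7A1. SLC1A1 lost its call in 9 of 17 alternatives, SLC3A1 in 10 of 16, and SLC16A7, SLC38A11 and SLC6A6 in 4 each, among them the fits without resistant array 1 and without resistant array 2 for all 3. Without the intensity trend 3 carriers were higher, and 698 probe sets were higher and 504 lower, against 1528 and 1135. Under Welch's test 0 carriers were higher and 0 lower after adjustment (8 differed at an unadjusted p below 0.05, against 18 in limma), and 10 probe sets were higher and 2 lower. In limma 3648 of all 11849 tested genes had an unadjusted p below 0.05. The matching number of genes under Welch's test was not counted, so neither carrier count is read further. With 1 array left out, 1 to 13 carriers were higher and 1 to 8 lower, and 476 to 3586 probe sets were higher and 393 to 3518 lower. The highest counts all came without parental array 3, and only 1 carrier was higher without resistant array 1 or without resistant array 2. SLC38A2 changed sign with quantile normalization (-0.066), with no further scaling (-0.065) and with the mean of its probe sets (-0.0020), and SLC43A1 with no further scaling (-0.00065). With 1 array left out, changes of sign occurred for SLC38A2 (lowest -0.23, without parental array 3), SLC43A1 (-0.12 without parental array 3 to 0.20 without parental array 2), SLC6A14 (-0.021 without resistant array 3 to 1.26 without resistant array 2), and SLC7A11 (-1.19 to 0.18) and SLC16A4 (-0.82 to 0.22), both lowest without parental array 3 and highest without parental array 2. The replicate block left 5 carriers higher and 1 lower, with SLC3A1 lost. Samples of the same number did not deviate together (correlations of -0.018, -0.022 and -0.016). Whether they shared more than a number, such as a day of culture, is not stated. The cause of these shifts was not tested.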
